A study of Mus musculus with 4 samples.

Results

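The 7 mouse microRNAs (miRNAs) described here are mmu-miR-5110, mmu-miR-692, mmu-miR-5108, mmu-miR-5106, mmu-miR-5119, mmu-miR-5620-3p and mmu-miR-7667-5p. They were selected on their enrichment in exosomes, that is, on counts in exosome libraries beside no or few counts in cell libraries, and are 7 of the 1915 mature miRNAs listed. The label given to them, counted in exosomes and absent in cells, held for 5 of the 7. miR-5620-3p had counts in 1 cell library and miR-7667-5p had counts in both. Because the contrast of exosomes with cells chose these miRNAs, their values on that contrast are given as a description, without a test.

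Small RNA was sequenced from MIN6 cells, a mouse insulinoma line used as a model of the pancreatic beta cell, and from exosomes that the same line released, with 2 libraries of each kind. The study asked which miRNAs the exosomes carry, since it used them to push mouse embryonic fibroblasts towards beta-like cells. The cells were grown in DMEM with exosome-depleted fetal bovine serum, and exosomes were collected from the conditioned medium by steps of centrifugation, filtration and ultracentrifugation. Both groups share the origin of the line, an insulinoma of mice transgenic for SV40 large T antigen. The labels give no genetic change or drug that sets the groups apart, and all libraries were made by adding a poly(A) tail to the RNA and switching templates during reverse transcription. The line is a single tumour line, and the sources used here do not say that the replicates came from separate cultures, so the spread between them may be technical. The finished exosome libraries were checked for quality on another instrument than the cell libraries. Any difference in how the libraries of the groups were handled cannot be told apart from one between the groups.

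A miRNA gene is transcribed into an RNA that folds into a hairpin, and the enzymes Drosha and Dicer cut the hairpin so that one of its arms, the mature miRNA, is loaded into an Argonaute protein. Bases 2 to 8 of the mature miRNA, the seed, pair with target mRNAs and lower their translation and stability. Exosomes are small vesicles that cells release when endosomal compartments fuse with the plasma membrane, and they contain miRNAs together with pieces of tRNA, mRNA and other RNAs.

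The mature sequences are shown first because the selection was by name and count alone, and the letters show what the members do and do not share. They were read from the deposited hairpin tables, and the seed is in capitals.
mmu-miR-5110: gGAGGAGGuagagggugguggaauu
mmu-miR-692: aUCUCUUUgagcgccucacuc
mmu-miR-5108: gUAGAGCAcuggaugguuu
mmu-miR-5106: aGGUCUGUagcucaguuggcaga
mmu-miR-5119: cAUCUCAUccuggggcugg
mmu-miR-5620-3p: aCAGUCAUcccccugccucac
mmu-miR-7667-5p: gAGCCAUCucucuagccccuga
The 7 members had 7 different seeds, so they do not form a family. Their lengths ran from 19 to 25 bases with a median of 21, beside a median of 22 over the 1101 mature miRNAs with a count in any library. The GC share ran from 47.4% in miR-5108 to 63.2% in miR-5119 with a median of 56%, beside 50% over the 1101. Over the 70 miRNAs with counts in exosomes and none in cells, which include 5 members, the median GC share was 56.5%. RefSeq (GRCm38.p6) holds a mature entry for 6 of the 7, with the same sequence in each case. miR-5620-3p had no entry there.

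Only 2 seeds recurred among the 1461 listed miRNAs whose sequence the deposited tables give. The GAGGAGG seed of miR-5110 is shared with miR-7081-5p, which had 1 count in each cell library and 0 in both exosome libraries. The GGUCUGU seed of miR-5106 is shared with miR-6897-3p, which had 0 counts in all 4 libraries. Among these 1461, no other miRNA had the same full sequence as a member. Listed miRNAs without a sequence there were not compared.

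The hairpins lie on 6 chromosomes, and most overlap introns (GRCm38, GENCODE vM21). Overlap with other genes was judged at the mature arm, not over the whole hairpin. mir-5110 lies at chr11:85760616-85760702 on the minus strand, inside an intron of Bcas3 and on the strand opposite to that gene. mir-5119 lies at chr11:98262606-98262662 on the plus strand, in an intron of Cdk12, which encodes a kinase of RNA polymerase II, on the same strand. mir-5108 lies at chr10:61774737-61774821 on the plus strand, in an intron of H2afy2, a macroH2A histone gene, on the opposite strand. mir-7667 lies at chr17:29595538-29595600 on the plus strand, in introns of Tbc1d22b and Gm28052 on the same strand and of Tbc1d22bos on the opposite strand. mir-5620 lies at chr7:7298891-7298946 on the plus strand, in an intron of the chloride transporter gene Clcn4 on the opposite strand. It also lies 110 to 55 bases before the RefSeq start of Clcn4.

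miR-692 is the member with several gene copies. mir-692-1 lies at chr17:6895229-6895337 on the minus strand with no other annotated gene over its arm. mir-692-2 lies at chr4:125504749-125504857 on the plus strand. Its arm lies in an exon of Ftl2-ps, a processed pseudogene of ferritin light chain, and in an intron of Grik3. mir-692-3 lies at chr13:74407065-74407173 on the plus strand. The arm of mir-692-3 lies in a coding exon of Ftl1-ps1, a ferritin light chain copy that the annotation lists as protein coding. The hairpins of mir-692-2 and mir-692-3 are identical over all 109 bases.

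Each level below is a count and its RPM, the count for each 1000000 mature miRNA counts in its library. The cell libraries held 2930217 and 2564068 mature counts and the exosome libraries 47447 and 31409, so that 3 counts corresponded to 1.02 and 1.17 RPM in cells and to 63.2 and 95.5 RPM in exosomes. RPM is a share of the miRNA counts, so more copies of a member and fewer copies of the other miRNAs cannot be told apart. Intervals are exact 95% intervals that cover counting error only. For a member with 0 counts, they reach up to 1.26 RPM in cell replicate 1 and 1.44 RPM in cell replicate 2.

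miR-5110 had 0 counts in both cell libraries, 11 counts in exosome replicate 1 and 45 in exosome replicate 2. These correspond to 232 RPM (116 to 415) and 1433 RPM (1045 to 1917). Both exosome libraries were above both cell libraries, and the exosome intervals did not overlap each other.

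miR-692 had 0 counts in both cell libraries and 46 and 24 in the exosomes, or 969.503 RPM (710 to 1293) and 764 RPM (490 to 1137). The exosome libraries gave like levels, with overlapping intervals. miR-692 had the smallest gap between exosome libraries of all 7 members.

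miR-5108 had 0 counts in both cell libraries and 85 and 2 in the exosomes, or 1791 RPM (1431 to 2215) and 63.7 RPM (7.71 to 230.001). The level in exosome replicate 1 was high, and the count in replicate 2 was below 3. The presence of miR-5108 above that count therefore rests on exosome replicate 1 alone.

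miR-5106 had 0 counts in both cell libraries and 41 and 12 in the exosomes, or 864 RPM (620 to 1172) and 382 RPM (197 to 667). miR-5119 had 0 counts in both cell libraries and 27 and 7 in the exosomes, or 569 RPM (375 to 828) and 223 RPM (89.6 to 459). Both were higher in exosome replicate 1 than in replicate 2, and in both the intervals of the exosome libraries overlapped.

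In the cells 5 and 0 counts of miR-5620-3p were found, against 29 and 27 in the exosomes. Its level was 1.71 RPM (0.554 to 3.98) in cell replicate 1, against 611 RPM (409 to 878) and 859.626 RPM (567 to 1250) in the exosomes. The exosome libraries were close to each other and above both cell libraries.

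For miR-7667-5p, the cell libraries gave 14 and 12 counts and the exosome libraries 47 and 89. Its cell levels were 4.78 RPM (2.61 to 8.02) and 4.68 RPM (2.42 to 8.18), and its exosome levels were 991 RPM (728 to 1317) and 2834 RPM (2276 to 3486). It was the member with the highest mean level in exosomes and the only one counted in all 4 libraries.

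**Figure D1:**
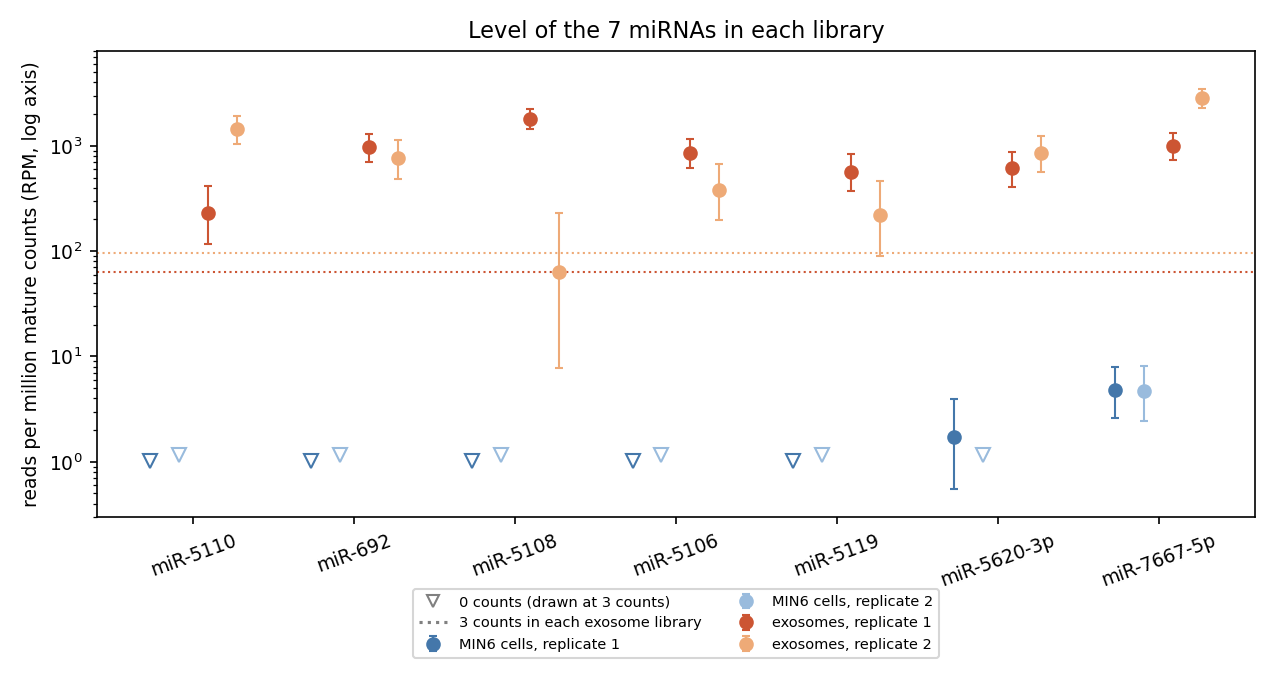
RPM (log axis) of each of the 7 miRNAs in the 2 MIN6 cell libraries and the 2 exosome libraries. Points carry exact 95% counting intervals, open triangles mark 0 counts and are drawn at the RPM of 3 counts, and dotted lines mark 3 counts in each exosome library. The exosome points lie above the cell points for every member, and miR-5108 falls from 1791 RPM in exosome replicate 1 to 63.7 RPM in replicate 2.

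The exosome means were 1912 ± 1303 RPM for miR-7667-5p, 928 ± 1222 for miR-5108, 867 ± 145 for miR-692, 832 ± 849 for miR-5110, 735 ± 176 for miR-5620-3p, 623 ± 341 for miR-5106 and 396 ± 245 for miR-5119 (SD, n = 2). The SD of miR-5108 and that of miR-5110 were larger than their means. No neighbours in this order differed by more than the SD of the higher one. Together the 7 took up 286 counts, 0.603% (0.535 to 0.677) of the mature counts, in exosome replicate 1 and 206 counts, 0.656% (0.570 to 0.751), in replicate 2. In the cells they took up 19 counts (0.000648%) and 12 counts (0.000468%), all of them from miR-5620-3p and miR-7667-5p.

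The summed shares of the exosome libraries were alike, but the members made them up differently. miR-5108 gave 29.7% of the members' counts in exosome replicate 1 and 0.971% in replicate 2. miR-7667-5p gave 16.4% and 43.2%, and miR-5110 gave 3.85% and 21.8%. The higher exosome library was replicate 1 for miR-692, miR-5108, miR-5119 and miR-5106, and replicate 2 for miR-5110, miR-5620-3p and miR-7667-5p.

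The ratio of the higher to the lower exosome library was 28.1 for miR-5108, 6.18 for miR-5110, 2.86 for miR-7667-5p, 2.55 for miR-5119, 2.26 for miR-5106, 1.41 for miR-5620-3p and 1.27 for miR-692. Over the 233 miRNAs with at least 10 exosome counts the median ratio was 2.28, 51 had a ratio over 5 and 21 had one over 10. miR-5108 was thus among the 21 least repeatable of the 233, and miR-5110 was among the 51 with a ratio over 5. By contrast, miR-692, miR-5620-3p and miR-5106 were below the median ratio, the last of them narrowly.

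The cell libraries were deep enough to hold the members at their exosome share. At the RPM of the lower exosome library, cell replicate 1 would have held 679 counts of miR-5110, 2239 of miR-692, 187 of miR-5108, 1119.51 of miR-5106 and 653 of miR-5119, and 0 were counted for each. It would have held 1791 counts of miR-5620-3p, of which 5 were counted, and 2903 of miR-7667-5p, of which 14 were counted. The same calculation for cell replicate 2 gave between 163 counts for miR-5108 and 2539.91 for miR-7667-5p.

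Fold differences were taken on CPM scaled by trimmed mean of M-values (TMM), which scales libraries by an average of the log ratios of their miRNAs after the extremes are trimmed. Where both cell libraries had 0 counts, the cell level was set to 3 counts per library, so the fold is a lower bound. By this measure miR-5110 was at least 339.904-fold higher in exosomes, miR-692 at least 318-fold, miR-5108 at least 303-fold, miR-5106 at least 220.187-fold and miR-5119 at least 139-fold. miR-7667-5p, counted in both cell libraries, was 176-fold higher. miR-5620-3p was 375-fold higher over its 5 and 0 cell counts, and 280.2-fold against 3 counts per library, since its cell mean lay below that level, so its fold is not ranked against the bounds.

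These folds carried the depth and the scaling with them. Library size alone gave higher values, with bounds from 363 for miR-5119 to 850 for miR-5108 and folds of 867 for miR-5620-3p and 407 for miR-7667-5p. From the summed counts, the share in exosomes over that in cells was 780 (315 to 2496) for miR-5620-3p and 364 (238 to 578) for miR-7667-5p. Scaling without a filter on low counts gave lower values, with bounds from 57.4 for miR-5119 to 134 for miR-5110 and folds of 138 for miR-5620-3p and 69.5 for miR-7667-5p.

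Single libraries moved the folds by more than 1.5 times for each member. Without exosome replicate 2 the bound of miR-5110 was 80.5 and the fold of miR-7667-5p was 79.8, and without exosome replicate 1 they were 783 and 359. For miR-5108 no fold could be given without exosome replicate 1, because the 2 counts left were below 3, and the bound was 622 without exosome replicate 2. Without cell replicate 1 the bounds were 214 for miR-5110, 184 for miR-692, 157 for miR-5108, 124 for miR-5106 and 77.4 for miR-5119, and the fold of miR-7667-5p was 117. The fold of miR-5620-3p was 135 without cell replicate 2, 606 without exosome replicate 1, and became a bound of 168 without cell replicate 1.

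Of the 1101 mature miRNAs with a count, 438 passed the filter on low counts, and 104 of them (23.7%) were called higher in exosomes by the quasi-likelihood test of edgeR with Benjamini-Hochberg adjustment. All 7 members were among the 104. Each of the 7 passed the filter through its exosome libraries alone, since the cell levels were too low to pass it. Both exosome libraries were above both cell libraries by RPM in 7 of 7 members and in 223 of the 1101 miRNAs (20.3%). The members were chosen by this contrast, so nothing is read from either count.

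**Figure D2:**
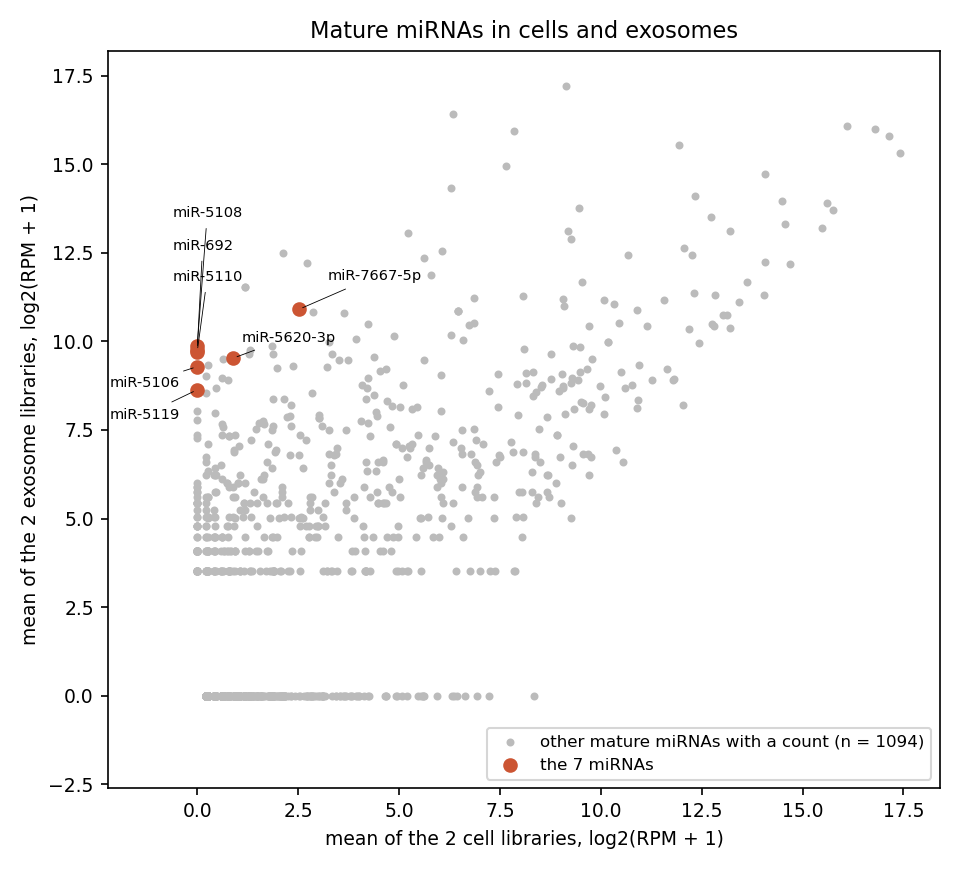
Mean level of each mature miRNA in the 2 MIN6 cell libraries (x axis) and the 2 exosome libraries (y axis), both as log2(RPM + 1), for the 1101 mature miRNAs with a count. The 7 members, in red, lie at the left edge, with 5 of them at 0 in cells, and the rows of grey points at low exosome levels are miRNAs with 1 or a few exosome counts.

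In all, 70 mature miRNAs had counts in exosomes and none in cells, 5 members and 65 others. The 5 members were the 5 with the highest mean exosome RPM of the 70 and held 300 of their 500 counts (60%). The median total of the 70 was 1 count, 39 had a single count, and 22 were counted in both exosome libraries. Only 6 were above 3 counts in both, and 4 of these were members, all but miR-5108 of the 5. The members were chosen on these counts, so nothing is read from their place among the 70 or their share of the counts.

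The miRNAs just outside the members by this measure were as follows. miR-451a, an erythroid miRNA that is processed without Dicer, had 33 and 2 counts in the exosomes and a mean of 380 RPM, beside 396 RPM for miR-5119, the lowest member. miR-351-5p had 14 and 7 counts, miR-19b-2-5p had 4 and 11, miR-142a-3p of blood cells had 14 and 1, and miR-1906 had 1 and 9. Their means ran from 259 RPM for miR-351-5p down to 154 RPM for miR-1906.

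Reads over the whole hairpin were counted as well. The hairpin total includes the arm reads on which the members were chosen, so only its off-arm part is separate from those counts. For every hairpin the deposited tables give the total and the part that lay on neither annotated arm. A read off the arms lies elsewhere on the hairpin or, under an assignment rule that is not given in the sources used here, runs past an arm's end. The 7 members have 9 hairpins, of which 3 hairpins with different outcomes are shown, with the arm of the member in capitals.
mmu-mir-5110: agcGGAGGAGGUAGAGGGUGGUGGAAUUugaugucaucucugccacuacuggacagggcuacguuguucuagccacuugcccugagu
mmu-mir-5106: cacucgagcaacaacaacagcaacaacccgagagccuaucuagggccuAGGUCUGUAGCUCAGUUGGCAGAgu
mmu-mir-5620: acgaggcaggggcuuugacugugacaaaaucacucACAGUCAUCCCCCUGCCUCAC
The arm takes up 25 of 87 bases in mir-5110, 23 of 73 in mir-5106 and 21 of 56 in mir-5620.

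The reads of mir-5110, mir-5119 and mir-7667 lay on annotated arms without exception. mir-5110 had 11 and 45 reads in the exosomes and 0 off the arm, which allows an off-arm share of up to 28.5% and 7.87%. mir-5119 had 27 and 7 reads and 0 off the arm, with upper limits of 12.8% and 40.9616%. mir-7667 had 50 and 90 reads in the exosomes and 15 and 12 in the cells, again with 0 off the arms, and its upper limits in the exosomes were 7.11% and 4.02%.

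The other 6 hairpins had most of their exosome reads off the arms. For mir-5106, 59 of 100 reads (59.0%, 48.7 to 68.7) lay off the arm in exosome replicate 1 and 62 of 74 (83.8%, 73.4 to 91.3) in replicate 2. For mir-5108, 118 of 203 reads (58.1%, 51.0 to 64.9973) and 25 of 27 (92.6%, 75.7 to 99.1) lay off the arm. The off-arm share of both was higher in replicate 2, and for mir-5108 and mir-5106 the intervals of the replicates did not overlap.

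For mir-5620, 155 of 184 reads (84.2%, 78.2 to 89.2) and 178 of 205 (86.8%, 81.4 to 91.1) lay off the arms, which was alike in both exosome libraries. For mir-692-1, 93 of 139 reads (66.9%) and 56 of 80 (70.0%) lay off the arm. The identical hairpins mir-692-2 and mir-692-3 each listed 455 and 311 reads, of which 409 (89.9%) and 287 (92.3%) were off the arm. The same 46 and 24 reads of miR-692 are listed on all 3 copies, so the reads of the copies cannot be summed.

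The hairpin reads changed the picture of the cells for 1 member above all. mir-5106 had 67 reads in cell replicate 1 and 43 in cell replicate 2, and all of them lay off the arm (lower limits 94.6% and 91.8%). The mature miR-5106 thus had 0 counts in cells whose libraries did hold reads of its hairpin. Scaled like RPM, the hairpin total was 22.9 and 16.8 in cells against 2108 and 2356 in exosomes. The ratio of the summed shares was 110.213 (86.3 to 141). Its exosome totals include the 41 and 12 arm reads on which miR-5106 was chosen.

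mir-692-1 had 1 and 3 reads in the cells, and mir-692-2 and mir-692-3 had 2 and 4 each, all off the arm. mir-5620 had 15 and 18 reads in the cells, 7 (46.7%) and 14 (77.8%) of them off the arms. The hairpins mir-5108, mir-5110 and mir-5119 are not listed in either cell table, and the tables list only hairpins with at least 1 read.

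**Figure D3:**
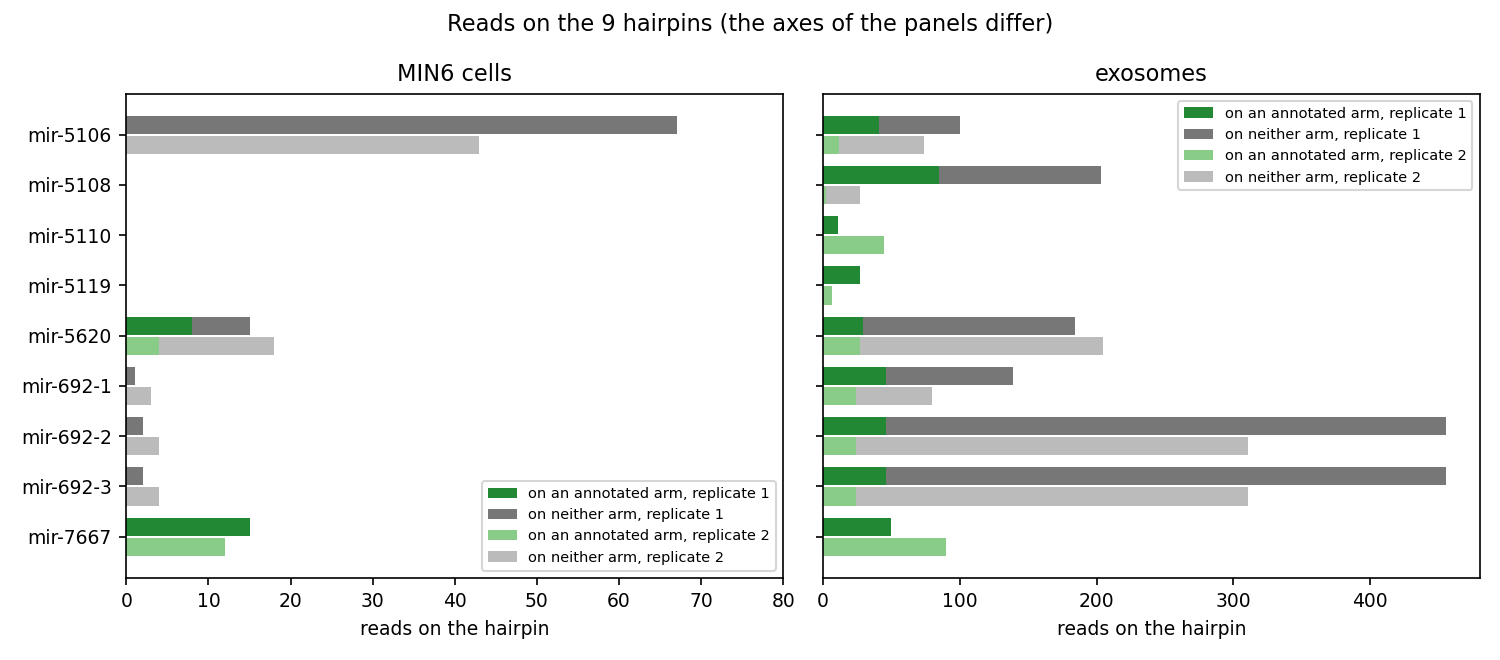
Reads on the 9 hairpins of the 7 miRNAs in MIN6 cells (left panel) and exosomes (right panel), with a longer axis in the right panel. Green bars are reads on an annotated arm and grey bars reads on neither arm, dark for replicate 1 and pale for replicate 2. mir-5110, mir-5119 and mir-7667 are green throughout, and mir-5106 is grey throughout in the cells, with 67 and 43 reads.

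Off-arm reads were also more common over all hairpins in the exosomes. They made up 32.8% and 42.0% of the hairpin reads of the exosome libraries, against 10.9% and 9.58% in the cells. Among hairpins with at least 10 reads, 46 of 245 (18.8%) in exosome replicate 1 and 58 of 179 (32.4%) in replicate 2 had more than 50% of their reads off the arms. Of the members' 9 hairpins, 6 were in that group in both libraries, while mir-5110 and mir-7667 were among the 48.6% and 36.3% of hairpins with none off the arms. mir-5119 was as well in replicate 1, and had too few reads in replicate 2. No test was made of the members against the other hairpins, and 3 of the 6 are copies of mir-692.

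**Figure D4:**
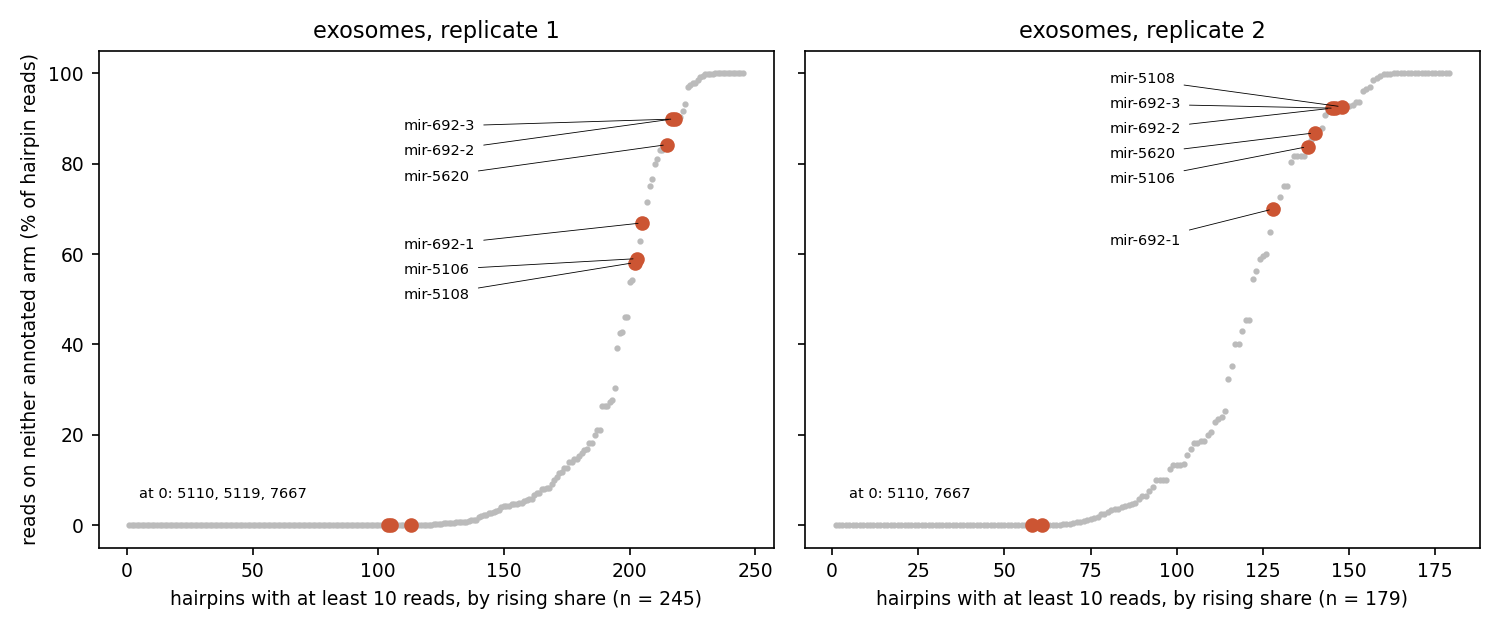
Percent of a hairpin's reads on neither annotated arm in each exosome library, for all hairpins with at least 10 reads ordered by rising share (245 hairpins in replicate 1, 179 in replicate 2). The hairpins of the 7 miRNAs are in red and split into those at 0 and those between 58.1% and 92.6%.

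The second arm of a hairpin is annotated for 2 members only. miR-5620-5p, opposite miR-5620-3p, reached 3 and 4 counts in cells and 0 in both exosome libraries, where a level as low as that in the cells was not detectable at this depth. miR-7667-3p, opposite miR-7667-5p, reached 1 and 0 counts in cells and 3 and 1 in exosomes.

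The mature sequences were then searched, without mismatches, in the GENCODE vM21 transcripts that do not come from miRNA genes, since a read of such a transcript could carry the same letters. The genome outside these transcripts was not searched. A match was found on the sense strand for 3 of the 7 members, which is 42.9%, beside 254 of the 1101 counted miRNAs (23.1%) and 12 of the 70 counted in exosomes only (17.1%). miR-5110, miR-5108, miR-5106 and miR-5119 had no match, even with their first 18 bases alone.

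miR-692, printed above, matched 7 genes: Ftl1, its copies Ftl1-ps1, Ftl1-ps2 and Ftl2-ps, and the processed pseudogenes Gm12164, Gm15590 and Gm5278. Ftl1 encodes the light subunit of ferritin, the protein that stores iron, and the match lies in its coding sequence at chr7:45458121-45458141 on the minus strand. The hairpin of mir-692-2 and mir-692-3 shares an unbroken run of 59 bases with Ftl1, and all of its 109 bases lie in Ftl1-ps1. The hairpin of mir-692-1 shares 35 bases with Ftl1 and at most 53 with any of these transcripts, the longest with Ftl1-ps1, Ftl2-ps and Gm12164. A read of the miR-692 letters can therefore not be told apart from a read of an Ftl1 transcript.

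miR-5620-3p matched the 3′ UTRs of 2 genes. Mid1, which encodes a ubiquitin ligase bound to microtubules, holds the 21 bases at 2 places, chrX:169989334-169989354 and chrX:169989737-169989757, on the plus strand. The other is 3110070M22Rik, at chr13:119487812-119487832 on the minus strand. Of the hairpin mir-5620, 31 of 56 bases, the whole arm among them, stand in Mid1 without a break.

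miR-7667-5p matched 1 gene in full, Gm49588, at chr16:18485824-18485845 on the plus strand, and 2 more on the antisense strand, Gm16754 and Gm38126. With its first 18 bases alone it matched 47 genes on the sense strand and 37 on the antisense strand. Only 17 of the 1101 counted miRNAs (1.54%) had their first 18 bases in 10 or more genes. The first 18 bases of miR-7667-5p were thus much repeated among transcripts, whereas its full sequence matched 1 gene on the sense strand. The full letters of miR-692 recurred in Ftl1, its copies and other pseudogenes, and those of 4 members were not found.

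Letters of tRNA were looked for in the same way, because pieces of tRNA are common in exosomes. The run UAGCUCAG, known from the D arm of many tRNAs, was found in miR-5106 and in miR-5112 and in no other of the 1101 counted miRNAs (0.182%). The run UAGAGCA, also frequent in D arms, is the seed of miR-5108, and was found beside it only in miR-1957a (0.182%). In reverse complement, the runs were found in 2 and 1 of the counted miRNAs. As DNA, on either strand, these runs were found in 1.46% and 3.16% of 32851 RefSeq promoter windows of 300 bases. Those windows are longer than a miRNA and were searched on both strands, so their shares are not comparable with 0.182%. The runs were chosen after the sequences had been seen, a match is only a likeness of letters, and tRNA genes were not searched.

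For each member, the miRNA outside the 7 with the most alike pattern was found as the smallest Euclidean distance of log2(RPM + 1) over the 4 libraries. The closest pair was miR-5106 with miR-17-5p, at a distance of 0.621, and miR-17-5p, of the miR-17-92 cluster, was also nearest to miR-5119, at 0.694. Its counts were 1 and 0 in cells and 36 and 9 in exosomes. miR-5620-3p was nearest to miR-145a-5p (1.12), miR-7667-5p to the liver miRNA miR-122-5p (1.15), and miR-692 to miR-3470a (1.26). miR-5108 was nearest to miR-451a (1.36), which was also high in exosome replicate 1 and had 2 counts in replicate 2, and miR-5110 had the largest such distance, 1.60 from miR-1195.

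miR-5106, miR-5108, miR-5110 and miR-5119 have close numbers in miRBase, which names miRNAs in the order of their deposit. Of the 37 mature miRNAs listed from miR-5099 to miR-5136, these 4 are members. Of the other 33, 15 had no count, 7 were counted in both groups, 6 in cells only and 5 in exosomes only. miR-5128, at 163 and 105 counts in cells and 186 and 203 in exosomes, had the most exosome counts of the 33. miR-5113 was at 105 and 60 counts in cells and 4 and 6 in exosomes. These are raw counts, and the cell libraries held on average 69.7 times the mature counts of the exosome libraries. After TMM scaling, the fitted log2 fold change of exosomes over cells was 0.85 for miR-5113 and 5.51 for miR-5128. Of these 2, miR-5113 was not called. A miRNA with few cell counts could be missed at the exosome depth, so nothing is read from the split of the 33 by group.

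miRNAs of other tissues were counted in the exosome libraries together with the members. The beta cell miRNAs (miR-375-3p, miR-7a-5p, miR-7b-5p, miR-184-3p and miR-182-5p) were counted in all 4 libraries and summed to 49505 and 48179.7 RPM in the cells and 29949 and 13658.5 RPM in the exosomes. The lower sum in exosomes came from miR-7a-5p, at 26831 and 26158 RPM in the cells and 8304 and 1019 RPM in the exosomes, and from miR-7b-5p. The levels of miR-375-3p, miR-184-3p and miR-182-5p overlapped between the groups. The 3 erythroid miRNAs summed to 1.02 and 1.56 RPM in the cells and 5838 and 987 RPM in the exosomes, the 3 myeloid ones to 0.341 and 0.390 against 1686 and 669, and the 2 liver ones to 4.44 and 8.19 against 1728 and 2038. miR-451a, miR-144-3p, miR-142a-3p and miR-122-3p were at 0 in both cell libraries, as were 5 of the members. All 8 miRNAs of these 3 lists had counts in exosomes, and their part in the levels of the members was not tested.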

How the data were processed

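The deposited tables hold raw counts of reads for each mature miRNA and RPM values, equal to a count over the sum of its library. Further deposited counts are for miRBase hairpins, with the part on neither annotated arm. The reads of single arms (8 columns) were left out because some entries join several values. Adapters and rRNA reads had been removed and the rest aligned in turn to the genome, miRBase and RNAcentral. The submitters' processing notes name mm10, cutadapt, Bowtie, STAR, RSEM, Bowtie2 and edgeR.

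Groups and replicates were taken from the sample labels. The members and lists were chosen with earlier results of these data known. Beside the members the text names the second arm, sharers of a seed or sequence, the 5 next exosome-only miRNAs, the nearest pattern, the range miR-5099 to miR-5136 and fixed marker lists. miR-5112 and miR-1957a fall outside this rule and were named for shared letters, as were the genes that hold a sequence or overlap a hairpin.

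miRNAs were kept by filterByExpr (minimum count 10) and compared in edgeR 4.0.16 by its two-sided quasi-likelihood test with TMM scaling, at an adjusted p of 0.05, after a check on simulated data. The alternatives were other scalings, filters and tests (exactTest, DESeq2 1.42.0), a replicate block and leaving out each library. Folds against 0 counts used a floor of 3 counts per library. Sequences came from the deposited tables and were searched in GENCODE vM21 transcripts (GRCm38) and RefSeq tables (GRCm38.p6). No genome or tRNA sequence was used here. The location of mir-5106 is not reported here. R 4.3.3, Python 3.11.15, scipy 1.17.1 and matplotlib 3.10.9 were used.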

Additional observations from a re-analysis of the deposited data

How the results depend on the processing

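Because the members were chosen for their enrichment in exosomes, how many of them were called under an alternative is a description. Against 104 higher and 129 lower calls among 438, requiring 10 counts in every library left 37 higher and 40 lower calls among 100 miRNAs, with 1 member tested and called, miR-7667-5p. Library size alone gave 30 lower calls, with 137 higher, and its median log2 fold change over all tested miRNAs was 0.61 against -0.75. No filter gave 202 lower calls. Leaving out 1 library at a time gave 46 to 115 higher calls, 56 to 162 lower calls and 4 to 7 members called. The lowest counts of higher calls came without cell replicate 1 (51) and cell replicate 2 (46). Without exosome replicate 1 miR-5106, miR-5108 and miR-5119 were not tested, and without exosome replicate 2 miR-5110 was not. The 70 miRNAs without cell counts became 181 with up to 3 counts allowed in each cell library and 44 to 120 with 1 library left out (120 without cell replicate 1, 48 without exosome replicate 1 and 44 without exosome replicate 2). With a replicate block, 117 were higher, 109 lower and 7 members called. Whether libraries of the same number come from the same culture is not stated. Their deviations had a correlation of 0.19 over 438 miRNAs, and there are only 2 pairs. The search of the genome sequence was not run.

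Depth and the spread between libraries both limit the exosome values. Chi-square per degree of freedom between replicates was 58.2 in exosomes and 19.5 in cells. A member at 3 counts there would stand at 63.2 or 95.5 RPM, so a level as low as those in cells was not detectable. The fitted changes of the 5 members without cell counts depend on the prior count and are not given. Reads over the arms carry no molecular identifiers, so intervals cover counting error only.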
